A study of Rattus norvegicus with 4 samples.

Results

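The barcodes described here come from the rat dorsal root ganglion (DRG) and were selected by the RNA of Scn7a, Chl1 and Prrg4, genes used as marks of Schwann cells that do not form myelin. A barcode was kept with at least 200 detected genes and at most 25% mitochondrial UMIs (unique molecular identifiers, each standing for 1 captured RNA molecule). It entered the set when Scn7a, Chl1 and Prrg4 together reached at least 10 of every 10000 UMIs. Marks of other cells had to stay low: Prx, Gldn, Mal and Bcas1 (myelinating Schwann cells) under 10, Fabp7, Ttyh1, Sfrp5 and Kcnj10 (satellite glia) under 20, Snap25, Uchl1, Tubb3 and Stmn2 (neurons) under 20, Dcn and Lum (fibroblasts) under 10, and Flt1, Kdr and Emcn (endothelium) under 10. The rule gave 3204 barcodes of the 46679 that were kept, called gated barcodes below.

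The study dissociated the L4-L6 DRG of the operated side from wild-type male SD (Sprague-Dawley) rats and captured single cells on the BD Rhapsody microwell system, with whole-transcriptome amplification. It has a Sham group and a group with the CPIP pain model, and no allele or drug is named for either. Each group has 2 libraries, called Sham 1, Sham 2, CPIP 1 and CPIP 2, and each library pools 3 rats. Neither the rats' age nor the time between the model and dissection is given by the labels, and pooling means that a single animal's contribution cannot be separated.

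Schwann cells that do not form myelin, also called Remak cells, hold bundles of thin axons, mostly of C-fibre nociceptors, in troughs of their membrane. They share an origin in the neural crest with myelinating Schwann cells and with the satellite glia that wrap the neuron bodies of the ganglion. Adhesion molecules of the L1 family, neuregulin signalling through ERBB receptors and a basal lamina are known to tie these cells to their axons. After nerve injury Schwann cells take on a repair state, marked by the transcription factors Jun and Stat3 and by secreted cytokines.

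The 4 libraries held 49168 barcodes and between 60885664 and 64550637 UMIs each. A gated barcode had a median of 1881 UMIs, against 5740.5 in satellite glia, 1702 in myelinating Schwann cells and 3264 in endothelial barcodes. By library the medians of the gated barcodes were 1660.5 and 1956 UMIs in Sham and 1735 and 2108 UMIs in CPIP. Cell barcodes shared between libraries numbered 19, and 0 were gated in more than 1 library. Doublets were kept; a caller marked 1, 4 and 2 barcodes in 3 libraries and so had not worked there.

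The gate rested on few molecules. A gated barcode carried a median of 6, 7, 7 and 7 gate UMIs in Sham 1, Sham 2, CPIP 1 and CPIP 2, and 61, 90, 112 and 56 barcodes entered on 1 UMI. Scn7a, which encodes the sodium-sensing channel Nax, had a UMI in 93.8% of gated barcodes. Chl1, an adhesion molecule of the L1 family, had one in 59.0%, and Prrg4, a transmembrane Gla protein, in 57.3%. All 3 genes were seen together in 35.7%, and 25.6% showed only 1 of them.

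These values describe the choice and were not tested. Summed over gated barcodes, Scn7a stood at 2176 and 2135 CPM (UMIs of a gene scaled to the same total in every sum of barcodes) in Sham 1 and Sham 2 and at 2179.7 and 1846 CPM in CPIP 1 and CPIP 2. The same gene had 269 CPM in satellite glia, 669 CPM in myelinating Schwann cells and 25 CPM in endothelial barcodes. The limit on the gate genes kept them low in satellite glia and endothelial barcodes, so those values were set by the choice. Prrg4 had 741, 634, 896 and 667 CPM in gated barcodes but 1154 CPM in myelinating Schwann cells, so it was not higher in the gated barcodes than in those cells. Chl1 had 492, 400.1, 488 and 549 CPM, without a separation of Sham from CPIP.

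At the edge of the gate, 160 barcodes lay just inside (10 to under 12 per 10000 UMIs) and 204 just outside (8 to under 10). S100a4, a calcium-binding protein found in non-myelinating Schwann cells and not part of the rule, had 73.1 CPM inside and 140 CPM outside. Gfap, an intermediate filament gene of Remak cells, had 9.37 CPM inside and 23.7 CPM outside. Among gated barcodes at 20 or more per 10000 UMIs, 2173 in all, S100a4 reached 686 CPM and Gfap 61.8 CPM. The 2557 barcodes with no gate UMI, under the same limits for other marks, had S100a4 at 597 CPM and Gfap at 0.750 CPM. S100a4 was therefore not particular to barcodes with gate RNA.

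The label non-myelinating Schwann cell was checked on genes outside the rule, and no sub-cluster described below met the condition set for that name. S100a4 had 609.6, 328, 535 and 456 CPM in Sham 1, Sham 2, CPIP 1 and CPIP 2, against a mean of 10.7 CPM in satellite glia. In myelinating Schwann cells it had 729 CPM, so it did not set the gated barcodes apart from those cells. When every barcode was thinned to 1000 UMIs, which left out 691 gated barcodes, S100a4 had a UMI in 24.8% of them (29.6% unthinned). The shares were 1.04% in satellite glia (145 left out, 4.60% unthinned), 28.3% in myelinating Schwann cells (220 left out, 38.7% unthinned) and 4.87% in endothelial barcodes (297 left out, 8.85% unthinned), which serve as background. Thinned shares for Gfap were 5.37% in gated barcodes, 1.99% in satellite glia, 3.38% in myelinating Schwann cells and 0.120% in endothelial barcodes.

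The 250 bases before the S100a4 start, chr2:178388279-178388528 on the plus strand of GRCr8, are shown because this gene had the largest ratio to satellite glia. The sequence is from RefSeq, and capitals mark the letters TATAAA (the usual box of this name), which begin 31 bases before the start.

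S100a4: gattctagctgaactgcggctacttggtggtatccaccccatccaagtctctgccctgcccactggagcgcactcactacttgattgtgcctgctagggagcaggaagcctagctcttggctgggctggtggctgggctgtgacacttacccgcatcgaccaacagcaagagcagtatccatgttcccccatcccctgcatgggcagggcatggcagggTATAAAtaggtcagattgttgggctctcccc

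TATAAA on either strand lies in 12.9% of the 33469 RefSeq windows of the same length.

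Clustering the 3204 gated barcodes gave 8 sub-clusters, which were named only where at least 3 listed markers of a single cell type were among their 20 leading genes. Sub-cluster 3 was the largest with 1229 barcodes (38.4%), sub-cluster 2 had 743 (23.2%) and sub-cluster 1 had 590 (18.4%), and all 3 stay unnamed. The leading genes of sub-cluster 2 held 2 non-myelinating Schwann markers, S100a4 and Gfap, beside 1 fibroblast marker, Mfap5, and 1 myelinating Schwann marker, Gldn. Sub-cluster 8 (68 barcodes) was led by cell-cycle genes. Sub-clusters 1, 2, 3 and 8 are called the glial sub-clusters, 2630 barcodes in all, by what they lacked. Each had a median of at least 1000 UMIs. In 1, 3 and 8 no neuron, endothelial, pericyte, macrophage, lymphocyte or neutrophil list reached 3 times the other gated barcodes on at least 50 UMIs. Sub-cluster 2 was kept without that screen, because S100a4 and Gfap together were highest there. Fibroblast genes were not screened, and no glial gene was required. Because the sub-clusters were cut from these same counts, their leading genes are a description.

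In sub-cluster 2, S100a4 stood at 2689 CPM against 147 CPM in the other gated barcodes, and Gfap at 212 against 20.9 CPM. Thbs2, a matrix thrombospondin, had 254 CPM against 6.41 CPM, and Sparcl1, a secreted matricellular protein, 1473 against 103 CPM. Mlip had 367 against 19.2 CPM. Mfap5, a protein of elastic microfibrils, had 149 against 3.84 CPM, and Gldn, a gene that the rule limited, 93.5 against 5.84 CPM. By library, S100a4 in sub-cluster 2 was 2749 and 2009 CPM in Sham and 2619.8 and 3179.7 CPM in CPIP, with overlapping groups. Thinned, 77.7% of its barcodes had an S100a4 UMI (79.5% unthinned, 168 left out) and 16.3% a Gfap UMI.

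L1cam, the axonal and Schwann adhesion molecule of Remak bundles, had 640.5 CPM in sub-cluster 2, 303.5 CPM in all gated barcodes and 42.0 CPM in satellite glia. Ngfr, the low-affinity neurotrophin receptor, had 79.2 CPM in sub-cluster 2 and 32.8 CPM in all gated barcodes. Other listed genes were not higher there. Thinned, Ncam1 had a UMI in 60.9% of sub-cluster 2, 65.7% of all gated barcodes and 74.8% of satellite glia. Cdh19 had a UMI in 42.3% of sub-cluster 2, 43.1% of all gated barcodes and 14.4% of satellite glia. The 17 listed non-myelinating Schwann genes other than the 3 gate genes summed to 10092 CPM in sub-cluster 2. They summed to 6152 CPM in sub-cluster 1, 6323 CPM in sub-cluster 3, 5686 CPM in satellite glia and 3445 CPM in myelinating Schwann cells. Of the sum in sub-cluster 2, S100a4 alone gave 2689 CPM. In sub-cluster 3 S100a4 had 93.9 and 110 CPM in Sham and 73.4 and 58.2 CPM in CPIP. The 8 listed fibroblast genes outside the rule summed to 12556 CPM in sub-cluster 2, 4864 CPM in sub-cluster 1, 3457 CPM in sub-cluster 3, 1048 CPM in satellite glia and 5814 CPM in myelinating Schwann cells. Collagen genes were also high in sub-cluster 2: Col1a1 had 5343 CPM against 1797 CPM in sub-cluster 1 and 1309.9 CPM in sub-cluster 3. Of the fibroblast genes outside the rule, Pdgfra was at 0.954 CPM there and Pi16 at 0 UMIs, while Dcn and Lum were limited by the rule itself.

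The leading genes of sub-cluster 3 included Cxcl10, Gbp5, Scd and Ccl2. Cxcl10, a chemokine induced by interferon, had 3068 CPM against 820.3 CPM in the other gated barcodes, Ccl2, which draws monocytes, 1657 against 564 CPM, and Gbp5, an interferon-induced GTPase, 574 against 177 CPM. Scd, a fatty acid desaturase, had 779.99 against 243 CPM. Cxcl10 (4371 CPM) and Ccl2 (2133 CPM) were higher still in satellite glia. Fabp7, the satellite glia gene that the rule limited, was at 150.3 CPM in sub-cluster 3, 25.8 CPM in sub-cluster 2 and 2086 CPM in satellite glia. The gap-junction gene Gja1 was at 223 CPM in sub-cluster 3 and 15.3 CPM in sub-cluster 2. Its median of 3310 UMIs per barcode was above the 1277 UMIs of sub-cluster 2, and the part of depth in these differences was not tested.

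Sub-cluster 1 was led by Pou3f1, a transcription factor of Schwann cells before they myelinate, with 313 CPM against 106 CPM, and by Igfbp3, an insulin-like growth factor binding protein, with 430.1 against 201 CPM. C1ql3, Gjc3 and Dkk3 followed, with ratios between 2.17 and 2.67. These ratios were far below the 22.7 of Thbs2 in sub-cluster 2. Dcn was at 0.838 CPM in sub-cluster 1 and Ptprc, the pan-leukocyte gene, at 0.838 CPM.

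Sub-clusters 4 and 5 were shallow. Sub-cluster 5, with 426 barcodes (13.3%), had a median of 680.5 UMIs and 1 gate UMI per barcode, and 85.2% of its barcodes showed only 1 gate gene. Among its leading genes, Prkg1 had 2434 CPM against 29.1 CPM, Cntnap2 1549.7 against 26.6 CPM and Nrg3 1398 against 21.2 CPM. The neuron list summed to 8105 CPM there against 2143 CPM in all gated barcodes, and its mitochondrial share was 2.59% against 11.8% in all gated barcodes. Sub-cluster 4 (60 barcodes) had a median of 673 UMIs and was led by Klf12, Sntb1 and Col25a1, and its leading genes held 1 listed marker, the non-myelinating Schwann gene Cadm2, at 1340 against 64.3 CPM. Both stay unnamed.

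Sub-cluster 6, with 46 barcodes (1.44%), was macrophage-like. Lyz2, lysozyme of myeloid cells, stood at 10446 CPM there and at 5.41 CPM in the other gated barcodes, and the macrophage list summed to 16794 CPM against 281 CPM in all gated barcodes. Doublet removal, run as an alternative, took 11 of the 46 barcodes of sub-cluster 6, 42 of 426 in sub-cluster 5 and 8 of 42 in sub-cluster 7. It took 9 of 590, 1 of 743 and 13 of 1229 in sub-clusters 1, 2 and 3. Whether barcodes of sub-cluster 6 mixed 2 cells was not tested. Sub-cluster 7, with 42 barcodes (1.31%), was pericyte and smooth-muscle-like, with Acta2 at 802 CPM against 1.13 CPM. Sub-cluster 8 had Top2a, the topoisomerase of dividing cells, at 1828 CPM against 2.19 CPM.

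**Figure D1:**
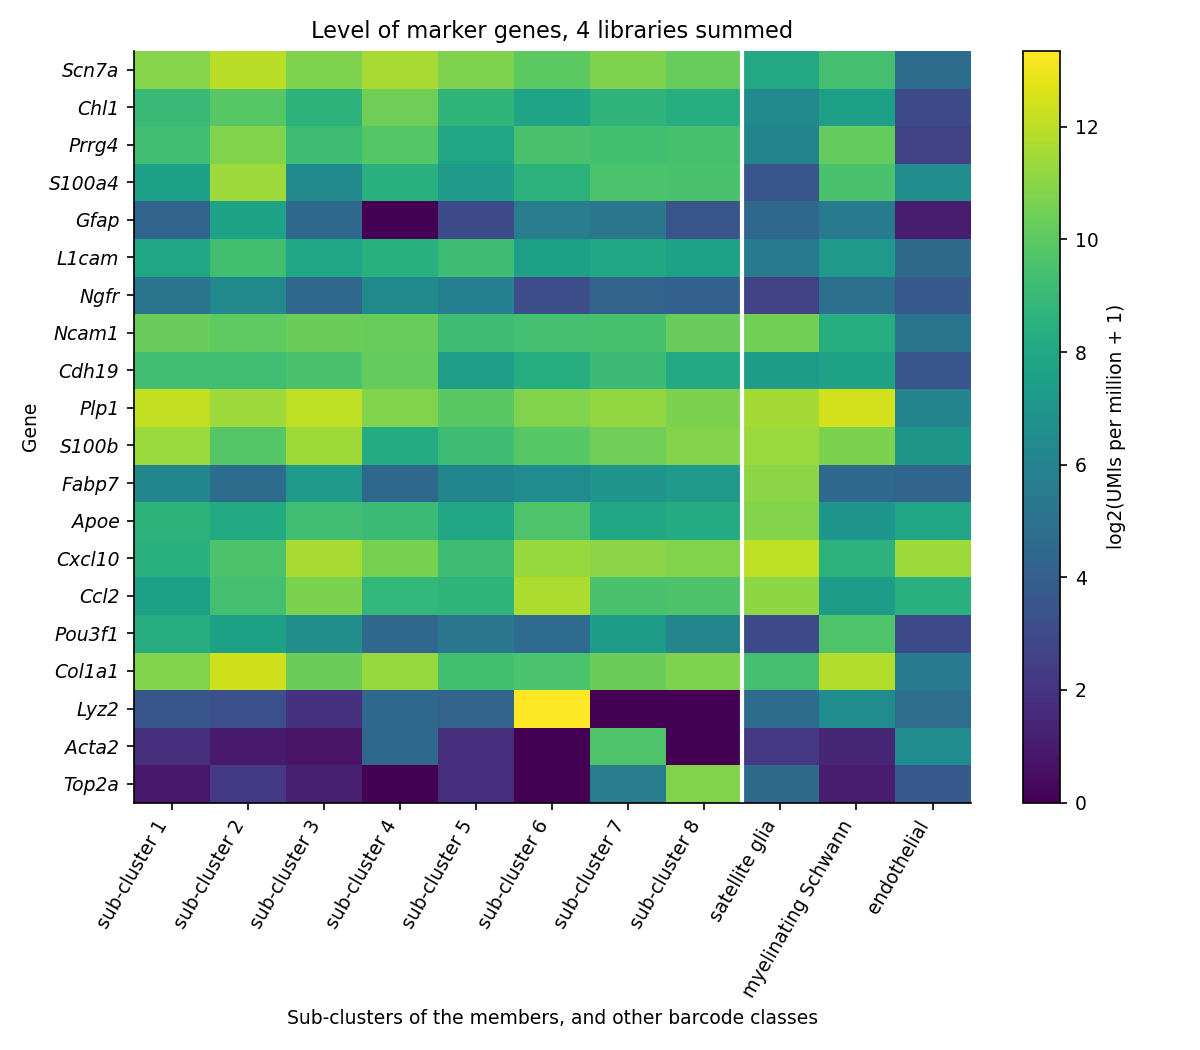
Heat map of log2(CPM + 1), pooled over the 4 libraries, for 20 marker genes (vertical) in the 8 sub-clusters of the gated barcodes and in satellite glia, myelinating Schwann cells and endothelial barcodes (horizontal). S100a4 and Gfap are highest among the glial sub-clusters in sub-cluster 2, where S100a4 is at 2689 CPM, and Lyz2 stands out in sub-cluster 6 at 10446 CPM.

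Gated barcodes were set beside satellite glia by ratios of means over the 4 libraries, as a description. Col3a1, a fibrillar collagen, had a mean of 1443 CPM against 67.7 CPM (log2 ratio 4.31), and S100a4 had the largest log2 ratio, 4.95. Spp1, osteopontin, had 84.8 against 1651 CPM (log2 ratio -4.32), and Fbln2, a matrix fibulin, 237 against 3220.3 CPM (log2 ratio -3.77). Igf1, insulin-like growth factor 1, had 28.9 against 289 CPM (log2 ratio -3.20). Set beside the barcodes with both marks, the log2 ratios were smaller in size for S100a4 (2.96), Spp1 (-2.68) and Fbln2 (-2.55). Cdh19, a cadherin of the Schwann lineage, was at 644.5 CPM in gated barcodes and 163 CPM in satellite glia.

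The same ratios were taken to myelinating Schwann cells. Mag, a myelin adhesion protein, had a mean of 3.78 against 192 CPM and Drp2, of the periaxin complex, 3.73 against 305 CPM. Fgf7, a fibroblast growth factor, had 0.894 against 116 CPM (log2 ratio -4.36). Ccl7 had 223 against 19.7 CPM (log2 ratio 3.32), Ptn, the growth factor pleiotrophin, 1095 against 136 CPM, and Elovl2, a fatty acid elongase, 653 against 63.8 CPM.

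The share of gated barcodes was compared between CPIP and Sham over libraries. It was 5.66% in Sham 1 (640 of 11306; exact 95% binomial interval 5.24 to 6.10%) and 6.198% in Sham 2 (696 of 11229; 5.76 to 6.66%). It was 8.30% in CPIP 1 (1011 of 12175; 7.82 to 8.81%) and 7.16% in CPIP 2 (857 of 11969; 6.70 to 7.64%). Both CPIP libraries lay above both Sham libraries, with means of 7.73% ± 0.809 (SD, n = 2) and 5.93% ± 0.380 (SD, n = 2), a log2 ratio of 0.38. The exact permutation test gave p = 0.333, two-sided, the smallest that 2 against 2 libraries allow. The intervals cover counting error only. A share depends on all other barcodes and on how well each cell type survived dissociation, so more of these cells and fewer others cannot be told apart.

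Within the gated set, sub-cluster 2 made up 27.7% and 17.5% of barcodes in Sham and 25.4% and 21.8% in CPIP, and the groups overlapped. Sub-cluster 3 made up 34.1% and 39.5% in Sham and 35.4% and 44.1% in CPIP, again with overlap. The macrophage-like sub-cluster 6 held 6, 7, 11 and 22 barcodes in Sham 1, Sham 2, CPIP 1 and CPIP 2, a log2 ratio of shares of 0.78. The pericyte and smooth-muscle-like sub-cluster 7 held 17, 11, 4 and 10 barcodes, a log2 ratio of -1.59. Sub-clusters 1, 6 and 7 did not overlap between groups, and their exact permutation p was 0.333 (0.889 after Benjamini-Hochberg adjustment over the 8 sub-clusters).

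**Figure D2:**
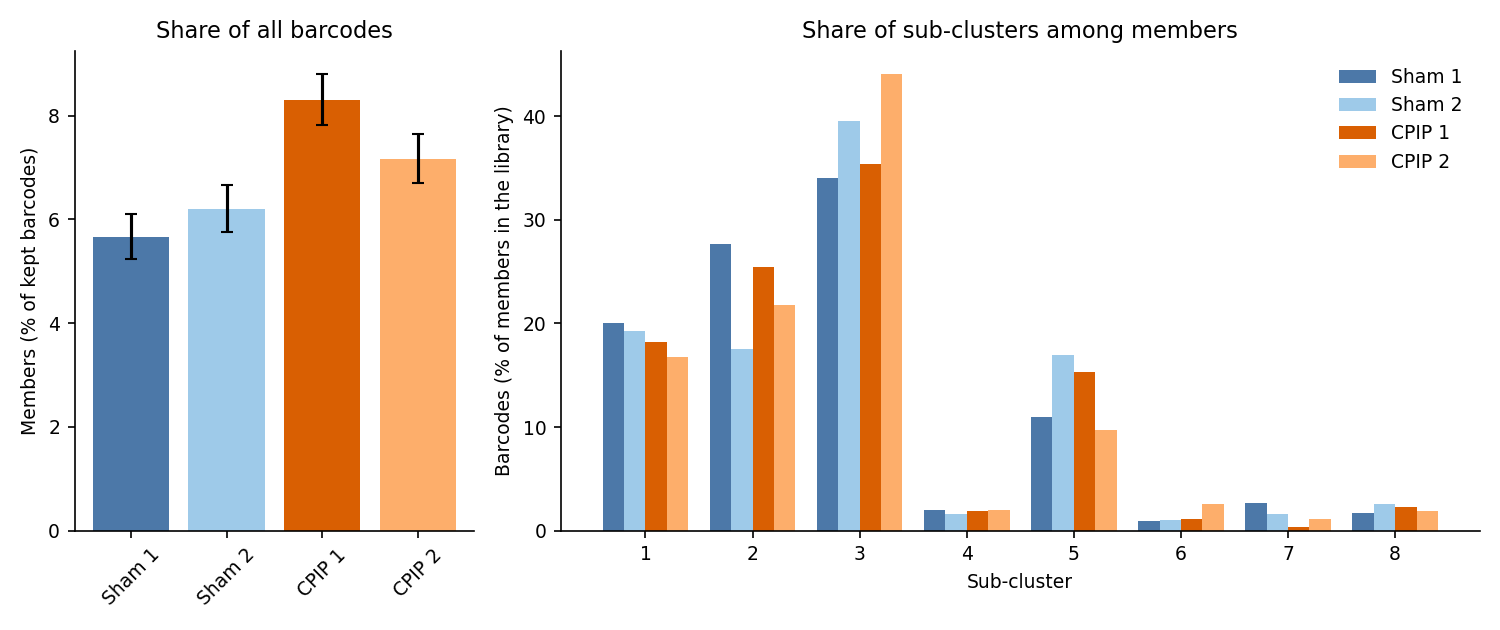
Share of kept barcodes that passed the gate in each library (bars, in percent, with exact 95% binomial intervals) and the share of each sub-cluster among the gated barcodes of each library (in percent). The 2 CPIP libraries, at 8.30% and 7.16%, stand above the 2 Sham libraries, at 5.66% and 6.198%.

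Gene levels in CPIP and Sham were compared on UMIs summed over the gated barcodes of each library, 1418849 and 1854487 UMIs in Sham and 2404036 and 2392512 in CPIP. Of 9843 genes tested with edgeR's quasi-likelihood test, 5 passed a Benjamini-Hochberg adjusted p of 0.05, which is 0.0508% of those tested. All 5 were higher in CPIP: Hba-a1, Hba-a3 and Hbb, which encode the globin chains of haemoglobin, Lyz2 and Rpl10a-ps9. At an unadjusted p under 0.05, 411 genes (4.18%) were counted. Sums over many barcodes mix the number of cells of a kind with the RNA in each, and these cannot be told apart. Nothing in the labels says more of replication than that rats were pooled per library, so a p-value measures the spread between these pools.

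The globin genes rose through few barcodes. Hba-a1 had 5.64 and 1.62 CPM in Sham and 293 and 598 CPM in CPIP (log2 change 7.04, SE 0.49, edgeR adjusted p = 0.000392). In CPIP 1, 689 of its 704 UMIs came from a single barcode, and in CPIP 2 1079 of 1430 UMIs did. Hbb had 2.11, 0.539, 96.5 and 412 CPM in the same order (log2 change 7.66, adjusted p = 0.0212 in edgeR). Hba-a3 had no UMI in either Sham library and 15.8 and 20.5 CPM in CPIP, at least 19.8-fold higher than 3 counts over the Sham group would give (adjusted p = 0.0174 in edgeR). Gated barcodes with at least 10 globin UMIs numbered 0 and 0 in Sham and 1 and 6 in CPIP. Without the 7 barcodes 2 of 9841 genes were called (0.0203%). Without them and the non-glial sub-clusters, Hba-a1 had 5.42, 1.19, 5.40 and 12.8 CPM and Hba-a3 had no UMI.

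Lyz2 rose, and most of its UMIs lay in the macrophage-like barcodes. It had 75.4 and 79.8 CPM in Sham and 199 and 257 CPM in CPIP (log2 change 1.57, SE 0.16, adjusted p = 0.00984 in edgeR). Sub-cluster 6 held 99 of 107 and 146 of 148 of its UMIs in Sham and 463 of 478 and 597 of 615 in CPIP. In the glial sub-clusters without globin-rich barcodes, Lyz2 had 3.87, 0.596, 4.95 and 8.23 CPM. The summed macrophage list was 133 and 143 CPM in Sham and 321 and 434 CPM in CPIP over all gated barcodes, and 12.4 and 15.5 against 23.4 and 22.2 CPM in the glial sub-clusters, with 2 of its 12 genes at 0 there.

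Rpl10a-ps9, named as a pseudogene of Rpl10a (a protein of the large ribosomal subunit), was the 1 called gene whose UMIs were spread over many barcodes. It had 1 and 0 UMIs in Sham and 53 and 104 UMIs in CPIP, from 49 and 96 barcodes, or 22.0 and 43.5 CPM. The ratio of CPIP to Sham was 107, with an exact 95% counting interval of 19.0 to 4259 (adjusted p = 0.0174 in edgeR). It remained called in the glial sub-clusters without globin-rich barcodes (adjusted p = 0.0476 in edgeR), where it had 0.775, 0, 22.5 and 43.9 CPM and was the only called gene of 9146 tested (0.0109%). DESeq2 called 0 genes there. Satellite glia showed a like step, with 6, 11, 251 and 463 UMIs, and so did myelinating Schwann cells, with 1, 0, 21 and 44 UMIs. Rpl10a itself had 352 and 345 CPM in Sham and 318 and 238 CPM in CPIP. Reads of the copy and the parent gene can be split by the counting, so the value of the copy is uncertain. Over 19 other settings its adjusted p in edgeR or DESeq2 ran from 3.79e-27 to 0.528, the highest in sub-cluster 3 alone, and 13 settings passed.

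**Figure D3:**
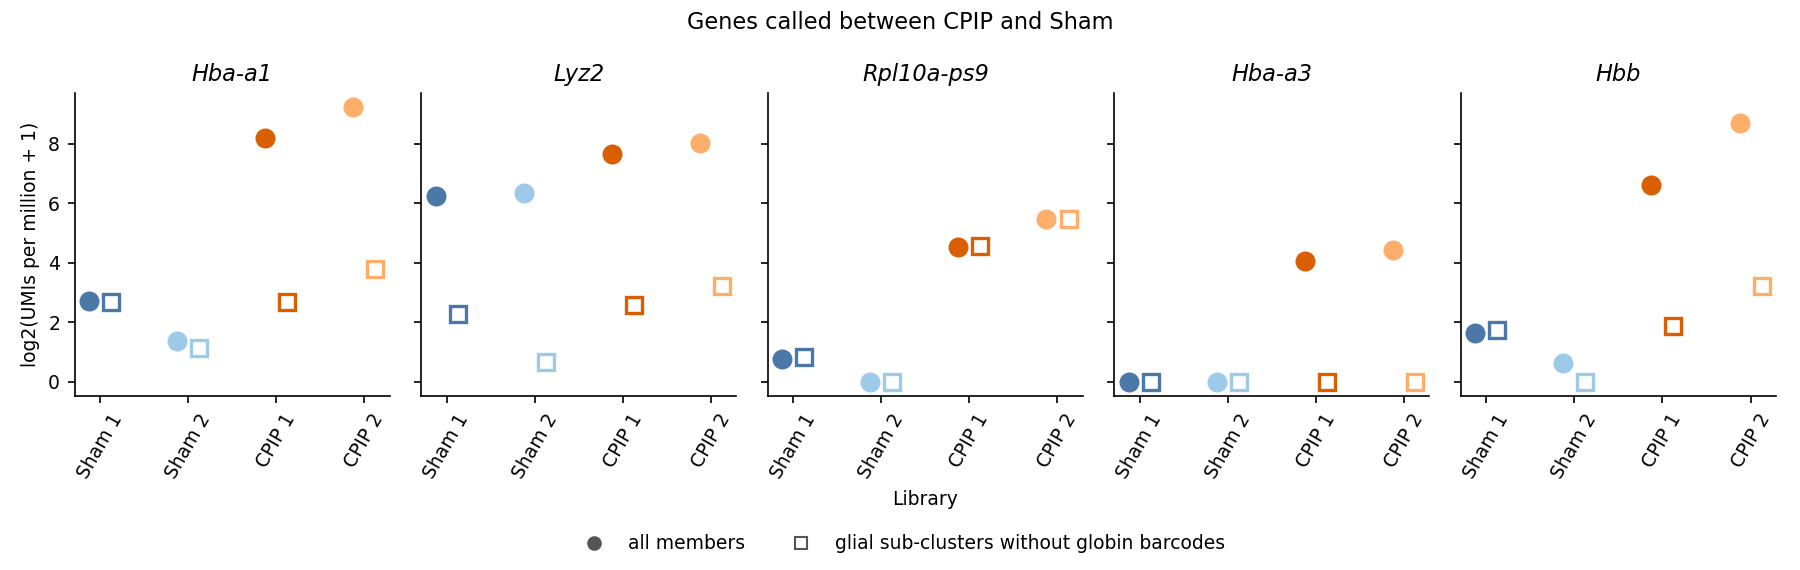
CPM of the 5 called genes in the 4 libraries, as log2(CPM + 1), for all gated barcodes (filled circles) and for the glial sub-clusters without globin-rich barcodes (open squares). The open squares of Hba-a1, Hbb and Lyz2 lie at or below 12.8 CPM in every library, while Rpl10a-ps9 stays at 22.5 and 43.9 CPM in CPIP.

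The genes next in line did not pass the adjusted threshold, and their values are given without a claim of change. Both CPIP libraries lay above both Sham libraries for 13.7% of all tested genes and below for 17.7%. Trib1, a pseudokinase, had 772 and 689 CPM in Sham and 1020.4 and 1078 CPM in CPIP (log2 change 0.54, SE 0.11). Tnfrsf12a, the receptor of the cytokine TWEAK, had 96.6 and 109 against 156 and 182 CPM (log2 change 0.73, SE 0.15). Stat3, a transcription factor of the Schwann repair state, had 569 and 596 against 720.04 and 862 CPM (log2 change 0.46, SE 0.12). Their edgeR adjusted p-values were 0.357, 0.357 and 1.00. In each the CPIP pair was the higher.

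Among the genes lower in both CPIP libraries, Nrg3 had 137 and 99.2 CPM in Sham and 72.4 and 68.5 CPM in CPIP (log2 change -0.72, adjusted p = 0.718 in edgeR). Nrg3, a neuregulin ligand, was a leading gene of sub-cluster 5, and its change was -0.25 in the glial sub-clusters without globin-rich barcodes. Pou3f1, the leading gene of sub-cluster 1, had 194 and 147 CPM in Sham and 133 and 97.4 CPM in CPIP (log2 change -0.54, SE 0.18). Dusp6, a phosphatase that feeds back on ERK signalling, had 168 and 187 against 128 and 133 CPM (log2 change -0.43, SE 0.13). Adjusted p was 1.00 in edgeR for Pou3f1 and Dusp6, and in both genes the groups did not overlap.

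Most listed genes of cholesterol synthesis had a positive fitted change in CPIP, and none was called. Schwann cells make most of the cholesterol of their membranes themselves, by a chain from HMG-CoA to sterols that SREBP2 controls. Of the 24 listed genes 21 were tested, none was called, and 19 had a positive log2 change, against 50% of all genes. An unadjusted p under 0.05 with a higher CPIP level was met by 10 of 21, against 2.61% of all genes, and in 14 of 21 both CPIP libraries were above both Sham libraries, against 13.7% of all genes. The list's median log2 change was 0.34, and that of all tested genes was 0.00. The list was chosen with earlier results of these data known, so the counts are a description. Leaving out 1 library at a time gave medians from 0.24 to 0.39.

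The start of the chain is shown by Hmgcs1, HMG-CoA synthase, with 794 and 683 CPM in Sham and 865 and 946 CPM in CPIP (log2 change 0.31, SE 0.12). Idi1, which isomerises the isoprene unit, had 1189.7 and 1092 against 1598 and 1624 CPM (log2 change 0.51, SE 0.10, adjusted p = 0.357 in edgeR). Both had their CPIP libraries above both Sham libraries.

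Further down the chain, Sqle, squalene epoxidase, had 360.2 and 266 CPM in Sham and 371 and 445 CPM in CPIP (log2 change 0.41, SE 0.16). Msmo1, which removes methyl groups from the sterol ring, had 374 and 346 against 499 and 566 CPM (log2 change 0.58, SE 0.12, adjusted p = 0.361 in edgeR). Tm7sf2, a sterol reductase, had 14.1 and 8.63 against 19.1 and 44.7 CPM (log2 change 1.54, SE 0.44). Its counts were low, from 16 to 107 UMIs a library. Hsd17b7 (log2 change -0.18) and Ebp (-0.03) were the 2 genes of the list with negative changes, and their groups overlapped.

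Control genes of the pathway are given as values. Insig1, which holds SREBP in the endoplasmic reticulum, had 365 and 342 against 448 and 443 CPM (log2 change 0.35, SE 0.11). Srebf2, which encodes SREBP2 itself, had 188 and 195 against 189 and 202 CPM (log2 change 0.05, SE 0.12) and overlapped between groups.

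By sub-cluster, 19 of 19 tested genes of the list were positive in sub-cluster 3 (median log2 change 0.30), 11 of 16 in sub-cluster 2 (median 0.19) and 10 of 16 in sub-cluster 1 (median 0.10). Of all genes tested 50.3%, 50.1% and 50.6% were positive in these sub-clusters. In the glial sub-clusters without globin-rich barcodes, 19 of 21 were positive, against 50.1% of all genes, with a median of 0.32. The difference between sub-clusters was not tested, and fewer UMIs stood behind sub-clusters 1 and 2. Idi1 had 1470 and 1313 CPM in Sham and 2034 and 1863 CPM in CPIP in sub-cluster 3, and 1110.4 and 1035 against 1411 and 1724 CPM in sub-cluster 2, so its groups stayed apart in both. In sub-cluster 1 they overlapped, at 734 and 591 against 604 and 847 CPM.

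**Figure D4:**
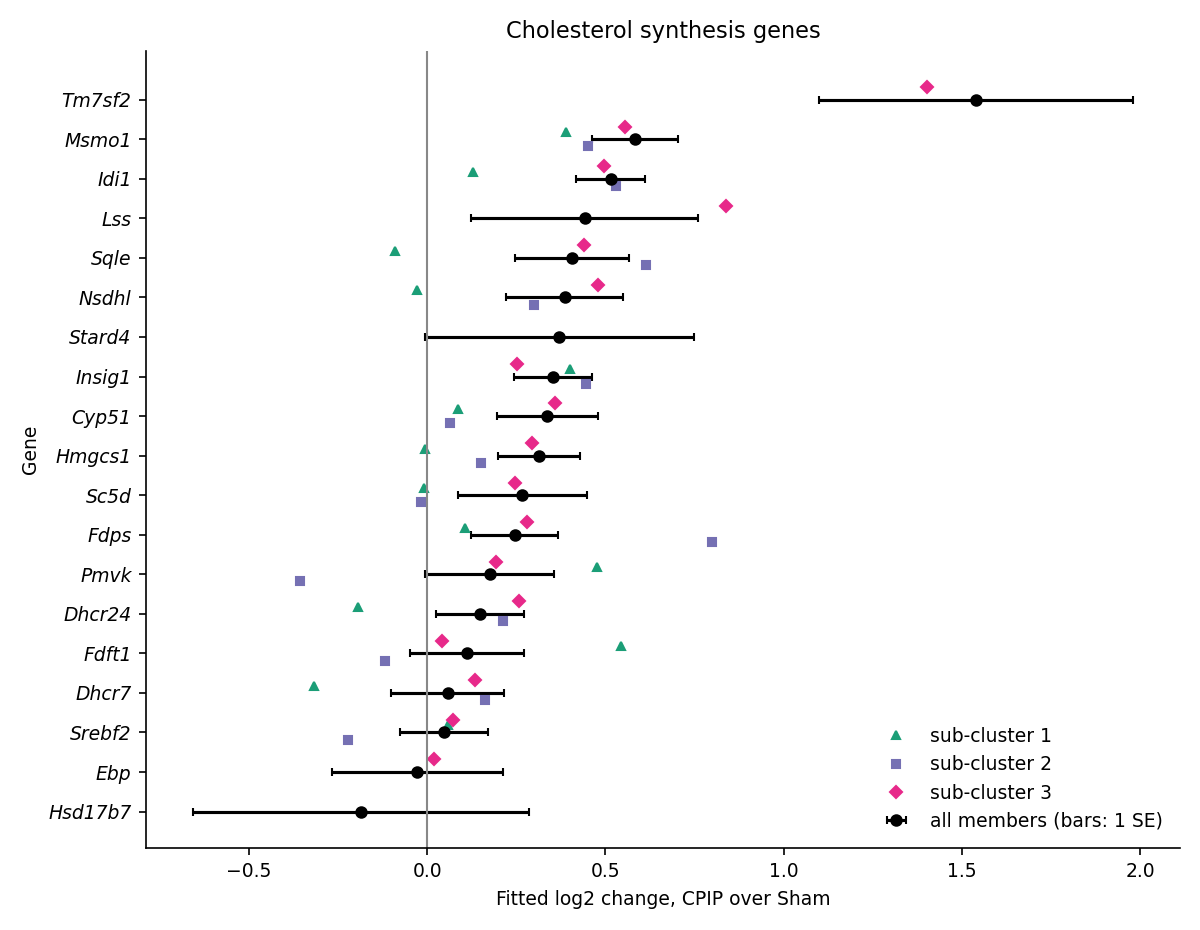
Fitted log2 change, CPIP over Sham, of 19 of the 21 tested cholesterol synthesis genes in all gated barcodes (points with bars of 1 standard error) and in sub-clusters 1, 2 and 3. In all gated barcodes 17 of the 19 points drawn lie above 0, with Tm7sf2 highest at 1.54.

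Promoters of 3 genes of the list are printed as examples, with no gene of the list called: the 250 bases before each start, from RefSeq on GRCr8. Idi1 lies at chr17:66547525-66547774 on the minus strand, Msmo1 at chr16:29746863-29747112 on the plus strand and Hmgcs1 at chr2:53382054-53382303 on the plus strand. Capitals mark CCAAT, the motif of the factor NF-Y, on either strand (it reads ATTGG on the other strand), and TATAAA.

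Idi1: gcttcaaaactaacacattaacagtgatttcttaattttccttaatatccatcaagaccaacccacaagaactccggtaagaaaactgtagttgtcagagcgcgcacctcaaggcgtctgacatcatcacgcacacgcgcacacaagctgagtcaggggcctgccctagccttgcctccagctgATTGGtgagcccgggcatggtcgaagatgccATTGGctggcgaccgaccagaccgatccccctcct

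Msmo1: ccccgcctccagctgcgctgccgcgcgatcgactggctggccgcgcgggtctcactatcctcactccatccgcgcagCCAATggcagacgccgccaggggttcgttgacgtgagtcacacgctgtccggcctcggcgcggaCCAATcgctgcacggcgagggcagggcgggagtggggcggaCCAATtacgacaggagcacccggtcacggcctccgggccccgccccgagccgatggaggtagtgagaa

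Hmgcs1: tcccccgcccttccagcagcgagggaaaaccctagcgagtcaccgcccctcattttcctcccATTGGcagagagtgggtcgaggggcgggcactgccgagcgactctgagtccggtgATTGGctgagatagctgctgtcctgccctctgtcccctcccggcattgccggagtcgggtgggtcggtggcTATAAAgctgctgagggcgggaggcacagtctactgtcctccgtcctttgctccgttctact

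CCAAT begins 66 and 35 bases before the start of Idi1, 173, 109 and 68 bases before that of Msmo1, and 188 and 133 bases before that of Hmgcs1, where TATAAA begins at 62. A window was found for 16 of the 24 listed genes, and CCAAT lay in 14 of these 16, against 34.0% of the 33469 windows. The sterol-response motif searched, CACCCCAC on either strand, lay in 1 of the 16 (Ebp), against 2.32% of all windows. A match is a run of letters and not a shown binding site.

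Most listed cytokine and chemokine genes also had a positive fitted change. Of 30 listed genes 19 were tested and none was called, while 16 were positive, against 50% of all genes. Higher at an unadjusted p under 0.05 were 8, against 2.61% of all genes, and 10 had both CPIP libraries above both Sham libraries, against 13.7%. The median log2 change was 0.29. Il6, the gp130 cytokine, had 69.8 and 43.1 CPM in Sham and 93.2 and 109 CPM in CPIP (log2 change 0.88, SE 0.21, adjusted p = 0.728 in edgeR). Ccl2 had 1214 and 849.8 against 1322 and 1414 CPM (log2 change 0.43, SE 0.15). Il1b, a cytokine of macrophages and a leading gene of sub-cluster 6, had 35.2 and 21.6 against 47.0 and 66.9 CPM. In each of these genes CPIP was the higher pair. In the glial sub-clusters without globin-rich barcodes 12 of 13 tested genes were positive, with a median of 0.20, and the part of the macrophage-like barcodes was not tested further. Over all gated barcodes, leaving out 1 library at a time gave cytokine medians from 0.28 (without CPIP 2) to 0.46 (without CPIP 1).

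In sub-cluster 2 the cytokine and the interferon response lists had negative medians, and the difference from the other gated barcodes was not tested. Of 3934 genes tested there with edgeR, 0 were called (0%), 203 had an unadjusted p under 0.05 (5.16%), and DESeq2 called 0. Of its 6 tested cytokine and chemokine genes 1 was positive (median log2 change -0.22), and of its 10 tested interferon response genes 3 were (median -0.36). Cxcl10 in sub-cluster 2 had 1119.5 and 1075 CPM in Sham and 574 and 656 CPM in CPIP (log2 change -0.85, SE 0.17, adjusted p = 0.313 in edgeR). Ifit3, an interferon-induced gene, had 105 and 90.5 against 31.6 and 33.2 CPM (log2 change -1.61, SE 0.37). In both genes the Sham pair was the higher. Over all gated barcodes Cxcl10 had 2753, 1792, 2131 and 2168 CPM, with overlapping groups.

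In the same sub-cluster, Adamts4, a protease that cuts proteoglycans, had 13.7 and 28.3 CPM in Sham and 94.8 and 66.3 CPM in CPIP (log2 change 1.99, SE 0.48). Akap12, a scaffold of protein kinase A, had 2175 and 2574 against 1377 and 1709.6 CPM (log2 change -0.64, SE 0.17). Neither passed the adjusted threshold, and neither overlapped between groups, as was so for 18.1% of all genes with CPIP above and 15.9% with CPIP below. Sub-cluster 3 also had 0 called genes of 7866 (0%), with 305 at an unadjusted p under 0.05 (3.88%); DESeq2 was not run on it. Sub-cluster 1 had 3 of 4483 (0.0669%), all globin genes.

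The interferon response and NF-kB lists are described over all gated barcodes as well, with no test of a list as a whole. Of 21 interferon response genes 12 were positive, with a median log2 change of 0.20, which was -0.09 without Sham 2. Gbp5 had 358 and 356 CPM in Sham and 442 and 470.2 CPM in CPIP (log2 change 0.37, SE 0.11). Of 17 NF-kB factors and feedback genes 15 were positive, with a median of 0.14, and Nfkbia, the inhibitor that NF-kB induces, had 1985 and 1869 against 2100.2 and 2052 CPM (log2 change 0.12, SE 0.09). Among 17 heat shock genes 14 were positive, with a median of 0.12. Without Sham 2 the NF-kB median was 0.31, and the heat shock median was 0.06 without Sham 1 and 0.07 without CPIP 1. No gene of these 3 lists was called.

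Genes of axon contact and the basal lamina showed small changes in both directions. Of 16 axon-glia adhesion genes 8 were positive, with a median log2 change of 0.00. Ncam1 had 1165 and 1257 CPM in Sham and 1157 and 1270.2 CPM in CPIP, and Cadm1, a nectin-like molecule that binds its partners on axons, had 1178 and 1184 against 1171 and 1056 CPM. Of 19 basal lamina genes and their receptors 6 were positive (median -0.05). Lamb1, a laminin chain, had 768 and 755 against 695 and 618 CPM (log2 change -0.20, SE 0.10), and Dag1, dystroglycan, had 2341 and 2580.2 against 2289.9 and 2664 CPM. No gene of these lists was called.

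The Schwann repair programme split evenly: of 17 tested genes 9 were positive, with a median log2 change of 0.02. Jun had 1919 and 1814 CPM in Sham and 1795 and 1763 CPM in CPIP (log2 change -0.05, SE 0.09). Atf3, a transcription factor induced by injury, had 920.5 and 1009 against 1097 and 1029 CPM (log2 change 0.16, SE 0.10). Lif, a cytokine of injured nerve, had 9.87 and 9.71 against 14.97 and 18.4 CPM (log2 change 0.78, SE 0.32). Adjusted p was 1.00 in edgeR for all 3.

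Genes of the trophic factor and neuregulin lists ranged from low to high levels. Ptn had 1086 and 1050 CPM in Sham and 892 and 1353 CPM in CPIP, while the genes named next were low. Igf1 had 19.7 and 15.6 CPM in Sham and 37.4 and 42.6 CPM in CPIP (log2 change 1.21, SE 0.24, adjusted p = 0.357 in edgeR), with the CPIP pair the higher. Cntf, the ciliary neurotrophic factor of Schwann cells, had 50.04 and 41.5 against 32.4 and 33.0 CPM (log2 change -0.46, SE 0.20). Of 9 neurotrophic factor genes tested 5 were positive, and of 8 neuregulin and ERBB genes 5 were. Erbb3, the neuregulin receptor of Schwann cells, had 29 UMIs over all gated barcodes. Of 13 glial receptors and channels linked to pain, 5 were positive (median -0.05); P2rx7, an ATP-gated channel, had 174 and 139.7 against 122 and 117 CPM (log2 change -0.37, SE 0.14).

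**Figure D5:**
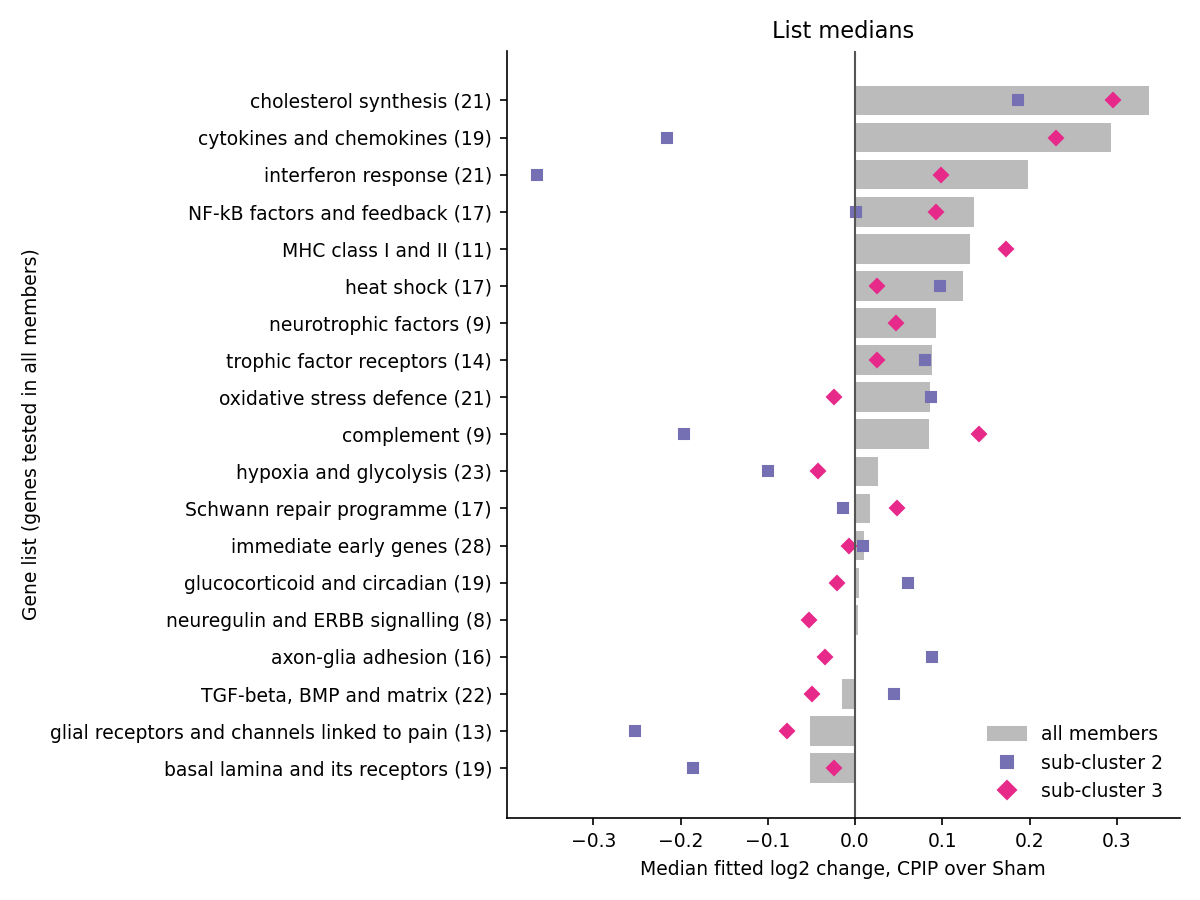
Median log2 change, CPIP over Sham, for each function list with at least 5 tested genes (bars, all gated barcodes; squares, sub-cluster 2; diamonds, sub-cluster 3). Cholesterol synthesis (0.34) and cytokines and chemokines (0.29) have the highest medians in all gated barcodes, and in sub-cluster 2 the cytokine median is -0.22 and the interferon median -0.36.

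The CPIP change of the gated barcodes was tested directly against that of satellite glia and of myelinating Schwann cells in the same libraries. Against satellite glia 5 of 12895 genes differed (0.0388%) and against myelinating Schwann cells 5 of 9037 (0.0553%), at an edgeR adjusted p under 0.05. For Igfbp3 the difference in log2 change was -0.77 (SE 0.13, edgeR adjusted p = 0.00801). Igfbp3 had 195 and 296 CPM in Sham and 224 and 222 CPM in CPIP in gated barcodes, and 18.6 and 22.9 against 31.9 and 33.1 CPM in satellite glia. The satellite glia pairs did not overlap, while in gated barcodes both CPIP values lay between the Sham values. Without the globin-rich barcodes and the non-glial sub-clusters the difference was -0.83 (edgeR adjusted p = 0.0160). Over the 13 other settings run the edgeR adjusted p ran from 0.000343 to 0.724 and 10 passed; the call was lost without Sham 2 (0.724), with at least 3 gate UMIs and in sub-cluster 2 alone.

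Idi1 and Msmo1 did not reach the threshold in these tests. The Idi1 change was larger in gated barcodes by 0.34 on the log2 scale (SE 0.10) than in satellite glia, where it had 2218 and 2032 CPM in Sham and 2493 and 2307 CPM in CPIP, and by 0.47 (SE 0.11, adjusted p = 0.113 in edgeR) than in myelinating Schwann cells, with 1138 and 1069.9 against 1203 and 1133 CPM. For Msmo1 the differences were 0.32 (SE 0.12) and 0.45 (SE 0.15), with adjusted p-values of 0.999 and 0.762 in edgeR. The difference of Rpl10a-ps9 was 1.28 (SE 1.26) against satellite glia and 0.86 (SE 1.68) against myelinating Schwann cells.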

How the data were processed

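The deposited matrices hold whole-number UMI counts per gene and barcode made by the authors, as the values show; the aligner, genome build, strand setting and barcode filter of the authors were not given in the sources used here. Of 25629 features 3852 had no symbol. Gated barcodes were clustered with scanpy 1.11.5 and igraph 0.11.9 (2000 variable genes, 30 components, 15 neighbours, Leiden resolution 0.5). Counts were summed per library and tested with edgeR 4.0.16 (quasi-likelihood test, TMM, low-count filter, Benjamini-Hochberg over all genes tested) on the 2 groups of 2 libraries; differences of change were interaction terms over 2 barcode classes. Shares were compared by exact permutation over libraries. A gene was called at an adjusted p under 0.05. Alternatives were DESeq2 1.42.0, other gates, depths and filters, doublet removal by Scrublet (by the highest scores where it marked too few) and leaving out each library. The scripts were tested on simulated data.

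Members, marker lists and function lists were chosen with earlier results of these data known. Genes were named by a rule: called genes; the 12 uncalled genes of smallest p in each direction that averaged at least 50 CPM with groups apart; the highest genes of the gated barcodes and those of highest ratio to satellite glia or myelinating Schwann cells; up to 4 genes of each list by level or p; and the gate markers with S100a4. Other genes, among them Erbb3, L1cam, Ngfr, Cdh19, Spp1, Nr1d1, Bmal1, Timp1 and Top2a, were named after their values were seen. Results of some single genes are not reported here; counts and medians of lists include them.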

Additional observations from a re-analysis of the deposited data

Results flagged for a closer look

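The CPIP change of the gated barcodes differed from that of another glial class for 10 genes, by the interaction test in edgeR. Against satellite glia, the log2 change was higher by 7.24 for Hba-a1 (adjusted p = 3.02e-12 in edgeR) and by 7.48 for Hbb. In satellite glia Hba-a1 had 251 and 46.0 CPM in Sham and 128 and 99.1 CPM in CPIP, and 851 of the 854 UMIs in Sham 2 came from 1 barcode. Without globin-rich gated barcodes and non-glial sub-clusters the differences were 1.83 and 2.39, and neither was called.

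For S100a9 and S100a8, calgranulins of neutrophils, the differences were -8.05 and -7.43. Gated barcodes held 4, 1, 1 and 2 UMIs of S100a9 in Sham 1, Sham 2, CPIP 1 and CPIP 2. Satellite glia held 3, 6, 361 and 670, of which 294 and 316 in CPIP came from single barcodes. Without Sham 1 neither gene was called. For Igfbp3 the difference was -0.77, with its levels given above.

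Against myelinating Schwann cells 5 genes of macrophages and antigen-presenting cells differed: Lyz2 by 1.99, C1qc by 5.81, RT1-Da by 8.31, Ctss by 3.61 and Csf1r by 3.66. C1qc had 4, 7, 35 and 76 UMIs in gated barcodes and 5, 12, 2 and 2 in myelinating Schwann cells, where the 5 and the 12 each came from 1 barcode. RT1-Da, an MHC class II gene, had 52.2, 43.7, 37.9 and 71.9 CPM in gated barcodes, with overlapping groups. Myelinating Schwann cells held 24, 2, 0 and 0 UMIs of it, 23 of the 24 from 1 barcode, so its fitted difference rests on libraries at 0 and is no bound. Within the glial sub-clusters 0 genes differed from myelinating Schwann cells at the adjusted threshold in edgeR. The part of single barcodes in these differences was not tested further.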

How the results depend on the processing

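The mean share of gated barcodes stayed higher in CPIP in all settings run. Log2 ratios were 0.27 to 0.49 on leaving out 1 library and 0.57 with at least 2000 UMIs per barcode. The exact permutation p was at least 0.333 wherever 2 libraries a group remained. With sub-cluster 2 alone the groups overlapped, at 1.57% and 1.09% of kept barcodes in Sham and 2.11% and 1.56% in CPIP (exact permutation p = 0.667). The 5 called genes became 29 without Sham 1, 6 without Sham 2, 402 without CPIP 1 and 58 without CPIP 2. In those fits the lone library is assumed to vary like the other group, and all 5 genes were among those called each time. Called genes numbered 2 with doublets removed, 3 with at least 2000 UMIs, 0 with a gate of at least 20 per 10000 UMIs (367 at an unadjusted p under 0.05 in edgeR), 3 with at most 10% mitochondrial UMIs and 108 with no low-count filter, which tests more genes. With fewer barcodes by construction they numbered 2 without globin-rich barcodes, 1 in the glial sub-clusters without them (DESeq2 called 0), 2 in the glial sub-clusters without sub-cluster 2, 3 in sub-cluster 1, 0 in sub-cluster 3 and 0 in sub-cluster 2 (0 with DESeq2). DESeq2 and RLE size factors each called the same 5. For the other changes the cause was not tested.

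After each group was centred on its own mean, the correlation of Sham 1 with CPIP 1 over genes was -0.09. With 2 libraries a group the crossed value is the same number with its sign turned. It cannot decide whether libraries were paired, and the labels give no pairing. With a replicate block 7 genes were called, the 5 among them. The log2 ratio of the shares with this block was 0.38 (exact permutation p = 0.5). Differences from satellite glia (5 genes) numbered 9 to 75 on leaving out 1 library (9 without Sham 1, 11 without Sham 2, 75 without CPIP 1, 14 without CPIP 2), 3 with at least 3 gate UMIs, 2 in sub-cluster 2, 3 in the glial sub-clusters without globin-rich barcodes and 12 with no filter. Differences from myelinating Schwann cells (5 genes) numbered 3 to 18 (8 without Sham 1, 3 without Sham 2, 18 without CPIP 1), 1 with doublets removed, 9 with at least 1000 UMIs, 0 in the glial sub-clusters, 0 in sub-cluster 2, 0 without globin-rich barcodes as well and 9 with no filter.

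Sub-cluster shares, as log2 ratios on leaving out 1 library, ranged from -0.22 to -0.11 (1), -0.23 to 0.43 (2), -0.051 to 0.27 (3), -0.073 to 0.29 (4), -0.49 to 0.17 (5), 0.16 to 1.40 (6), -2.37 to -0.81 (7) and -0.33 to 0.26 (8), so those of 2, 3, 4, 5 and 8 changed direction. Among single genes Tap1 turned to -0.56 in sub-cluster 2 (-0.57 with DESeq2), and Cxcr4 to 0.19 and Igfbp7 to 0.092 with at most 10% mitochondrial UMIs. Of the other single-gene and list values under an alternative, 990 kept direction and side of the threshold or moved less than the replicate spread, 47 gained the threshold, 49 lost it and 111 list medians moved more. The settings that keep or drop sub-clusters or globin-rich barcodes were chosen after seeing the data. The few gate UMIs per barcode limit how surely a barcode belongs to the set, and 2 libraries a group limit every test.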

Other observations

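Some gene groups outside the comparisons above are given as values over all gated barcodes, with no called gene among them. Nr1d1, a repressor of the circadian clock, had 22.6 and 20.5 CPM in Sham and 9.98 and 10.9 CPM in CPIP (log2 change -1.02, SE 0.29), and Nr1d2 had 128 and 111 against 96.5 and 75.7 CPM (log2 change -0.45, SE 0.16). Bmal1, whose gene they repress, had 86.0 and 83.6 against 85.3 and 82.8 CPM. Of 19 glucocorticoid and circadian genes tested 12 were positive, with a median log2 change of 0.00.

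Immediate early genes were high in both groups and did not lean one way: of 28 tested 14 were positive (median 0.01). Fosb had 4579 and 4659 CPM in Sham and 5284 and 4552 CPM in CPIP. Of 23 hypoxia and glycolysis genes 12 were positive (median 0.03), and of 21 oxidative stress defence genes 13 (median 0.09). Timp1, an inhibitor of matrix proteases, had 271 and 283 against 341 and 323 CPM (log2 change 0.28, SE 0.11), within a TGF-beta, BMP and matrix list of which 11 of 22 tested genes were positive.

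Of 8 cell-cycle genes tested 7 had a negative fitted change over all gated barcodes (median -0.18), where 50% of all genes had a positive one. Top2a lay mostly in sub-cluster 8, at 1828 CPM against 2.19 CPM in the other gated barcodes. That sub-cluster made up 1.72% and 2.59% of gated barcodes in Sham and 2.27% and 1.87% in CPIP, with overlap. Top2a had 68.4 and 97.6 CPM in Sham and 59.9 and 58.1 CPM in CPIP (log2 change -0.49, SE 0.18, adjusted p = 1.00 in edgeR).

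Of 9 complement genes 6 were positive (median 0.08), of 11 MHC genes 7 (median 0.13) and of 14 trophic factor receptors 8 (median 0.09).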
